A study of Mus musculus with 9 samples.

Results

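The 63 genes described here carry the symbols of the cytosolic factors of translation initiation and elongation, or are Tpt1 and Pabpc1. They include kinases and repressors of these factors and some genes with other roles, all called factors below. They were taken by symbol from a molecule table of 9 single cells from the hypothalamic paraventricular nucleus of juvenile C57Bl6/N mice, aged 21 to 28 days. Every symbol starting with Eif and a digit from 1 to 6, or with Eef1 or Eef2, was included, with 2 symbols (Eif2s3x and Eif2s3y) left out by definition, and the 63 genes stand among 23528 names in the table. The 9 cells are all labelled as positive for secretagogin, a calcium sensor protein, and no treatment is given, so they form a single group with nothing to set it against. Cell numbers follow the titles. Since the labels tie no cell to an animal, the group counts as 1 sample, no p-value was computed, and intervals are exact 95% intervals that cover counting error only.

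Initiation factors bring the small ribosomal subunit, the initiator tRNA and the capped mRNA together. Elongation factors then deliver each charged tRNA and move the ribosome along the mRNA. Many of the most abundant mRNAs of this machinery, like those of the ribosomal proteins, are known as TOP mRNAs: they begin with a cytosine followed by an unbroken run of pyrimidines, through which the mTOR pathway and the protein Larp1 control their translation. In mouse muscle and neurons the elongation factor paralog Eef1a2 is known to come up after birth while Eef1a1 declines.

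The pyrimidine run is shown first because it is the feature by which TOP mRNAs are known. The following lines give the first 24 bases of annotated transcripts (GENCODE M21, GRCm38/mm10), 5′ to 3′ on the gene's own strand. Capitals mark the first run that opens with C and goes on with at least 4 more pyrimidines. The number after each symbol is that of the annotated transcript. Pabpc1 lies on chromosome 15, Eif3f on 7, Eef1b2 on 1, Eef2 on 10, Eif4a2 on 16 and Eif1 on 11.
Pabpc1 201: CCCCTTCTCCCCggcggttagtgc
Eif3f 201: CTCTTTCTCggcaagatggcttct
Eef1b2 209: CTTTTTTTCCCTCagcgctggccg
Eef2 201: gttgacgtcagcggtCTCTTCCgc
Eif4a2 201: gcggcagggccgcggaaaccccgt
Eif1 201: ggcgtccgggagcttgactccatg
The run stood at the first base in the transcripts shown of Pabpc1, Eif3f and Eef1b2, and at base 16 in Eef2. It was absent from the 24 bases shown of Eif4a2 and Eif1, although transcript 224 of Eif4a2 is annotated with such a start. For Eef1b2 the transcript shown, 209, is the one annotated with such a start, whereas for Eif4a2 it is not. The lines therefore illustrate the run and do not compare the genes. Of the 11 genes listed here as TOP mRNAs, 4 had at least 1 annotated protein-coding transcript that starts with C and 4 pyrimidines, against 5.12% of all protein-coding genes. Over all 63 genes the number was 9, and among 84 ribosomal protein genes, the best known TOP mRNAs, it was 22. Those of the 9 that are not listed here as TOP mRNAs were Eif2b4, Eif2s1, Eif3m, Eif4a2 and Eif4g2. Such a start was thus more frequent among the listed TOP mRNAs, at 36.4%, than over all 63 genes, at 14.3%. It did not mark the list off cleanly, since most listed genes lacked it and some other factors had it. A gene with more annotated transcripts had more chances to be counted, and this was not adjusted for. Annotated starts can lie some bases from the true start, so a missing run here says only that these letters do not open the annotated transcript.

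The cells differed in depth and in what else they held. Gene molecules ran from 1021 in cell 1 and 3393 in cell 6 to 26466 in cell 5, with a median of 9573. The label gene Scgn had 17 molecules in 5 of the 9 cells, and cells 1, 4, 6 and 7 had none. Cell 4 held 2376 molecules of blood markers and 118 of endothelial markers, cell 5 held 382 of oligodendrocyte markers, cell 7 held 54 of endothelial markers, and cell 8 held 91 of ependymal or tanycyte markers and 29 of astrocyte markers. In the other 5 cells each of these lists summed to between 0 and 3 molecules. Microglial markers were at 0 in every cell. Neuron markers ran from 28 molecules in cell 8 to 244 in cell 5. The part of these other cells' RNA in any result below was not tested. Pooled shares and counts of detected genes are therefore also given without cells 4, 5, 7 and 8. Cell 9 was the only cell on lane 4 by its column name and held 614 spike-in molecules, where the other 8 cells held between 1962 and 2184, so cell and lane cannot be told apart there.

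Together the translation factors gave 889 of 91370 gene molecules. Their summed share was highest in cell 9, at 1.57% (interval 1.31 to 1.87%), and lowest in cell 1, at 0.392% (0.107 to 1.00%). Cells 5, 3, 2 and 8 had 1.08%, 1.03%, 0.992% and 0.949%, and cells 7, 4 and 6 had 0.670%, 0.657% and 0.531%. The interval of cell 9 lay above those of all 8 other cells. When mitochondrial and globin molecules were left out of the totals, cell 9 had 1.64% (1.37 to 1.96%) and cell 4 had 1.39% (1.10 to 1.73%), so those intervals then overlapped, as did that of cell 3, which had 1.14% (0.940 to 1.37%). The median share was 0.949% over the 9 cells and 0.992% without cells 4, 5, 7 and 8.

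**Figure D1:**
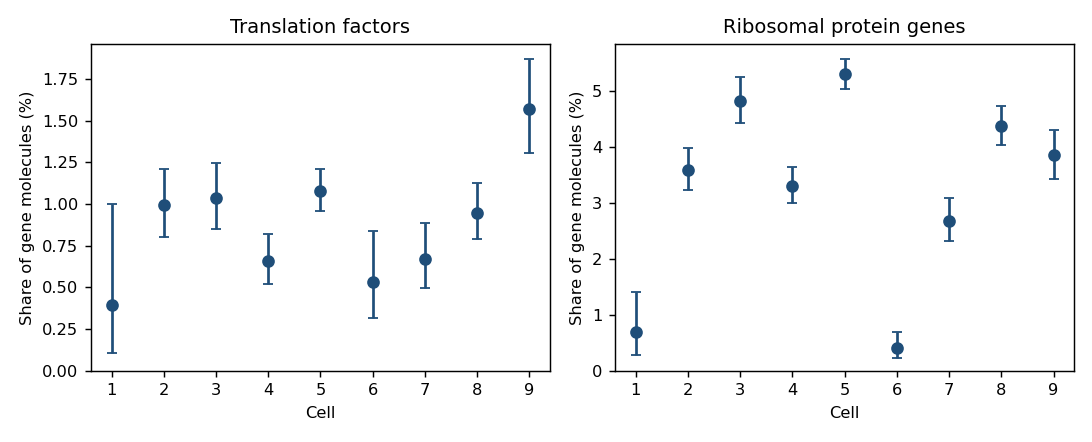
Share of gene molecules, in percent, from translation factors (left panel) and from cytosolic ribosomal protein genes (right panel) in each cell, with exact 95% intervals as bars. Cell 9 is highest for translation factors at 1.57%, whereas cell 5 is highest for ribosomal protein genes at 5.29%.

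Set beside the mRNAs of the ribosome itself, the factors were not in a fixed proportion. Translation factors made up 16.6 to 21.7% of the molecules of both classes in cells 2, 3, 4, 5, 7 and 8. In cell 9 they made up 29.0% (24.7 to 33.6%), with an interval above those of cells 3, 4, 5 and 8. In cell 6 the figure was 56.3% (37.7 to 73.6%), from 18 factor molecules against 14 ribosomal protein molecules, and in cell 1 it was 36.4% (10.9 to 69.2%), from 4 against 7. The interval of cell 6 lay above those of every other cell but cell 1. Cells 6 and 1 were the shallowest, and cell 6 had the highest mitochondrial share of molecules, 34.2%, with 19.9% in cell 1 and a median of 13.4%. Whether these values are linked was not tested.

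Most of the factors were detectable somewhere, and the minority of them in most cells. A gene counted as detected with at least 1 molecule. Of the 63 genes, 24 reached at least 5 of the 9 cells (38.1%), 32 reached 1 to 4 cells and 7 were undetected. Over all names in the table, 7% were detected in at least 5 cells, and 16.9% of those with any molecule. Of all 23528 names, 13783 were undetected, so a count of 0 was common in this table. At least 2 molecules in at least 5 cells were found for 11 of the 63 factors (17.5%) and for 2.64% of all names. Without cells 4, 5, 7 and 8, 21 genes were detected in at least 3 of the 5 cells left, as were 5.99% of all names. Only Eif4g2 and Tpt1 were detected in all 9 cells. The count of factors per cell ran from 4 in cell 1 and 10 in cell 6 to 46 in cell 5. Thinned to the 7160 molecules of cell 7, cells 2, 3, 5, 8 and 9 would hold 28.1 to 31.8 factors, cell 4 would hold 22.7 and cell 7 holds 22 (cells 1 and 6 were too shallow to enter). Much of the distance between cell 5 and the others in the raw counts was therefore absent at equal depth.

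**Figure D2:**
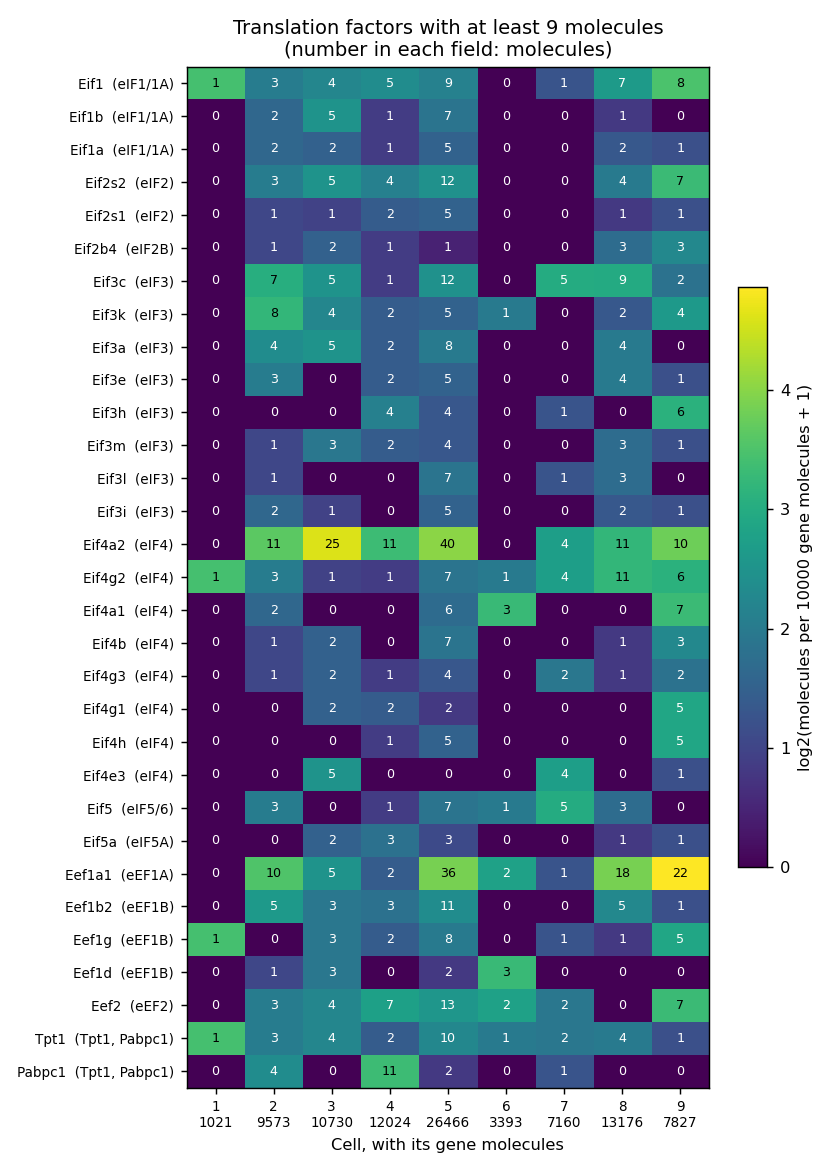
Molecules of the 31 translation factors with at least 9 molecules in each cell, ordered by complex, with the molecule count in each field and colour giving log2(molecules per 10000 gene molecules + 1). Eif4a2 is brightest in cell 3 with 25 molecules and Eef1a1 in cell 9 with 22.

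The eIF4 genes, which encode the cap-binding complex eIF4F, its cofactors and their relatives, gave the most molecules of any group of factors, 245, or 27.6% of all factor molecules. The most came from the RNA helicase of eIF4F, which unwinds the leader of the mRNA and is made from either of a pair of paralogs, Eif4a2 and Eif4a1. Eif4a2, on chromosome 16 at 23107444 to 23114136 (plus strand, GRCm38/mm10), had 112 molecules and was the most abundant factor by raw count. Cells 1 to 9, in that order, held 0, 11, 25, 11, 40, 0, 4, 11 and 10 molecules of it. Per 10000 gene molecules its level was 23.3 (15.1 to 34.4) in cell 3, ahead of cells 5 and 9 with 15.1 and 12.8. The interval of cell 3 lay above those of cells 6, 7 and 8. Eif4a1, on chromosome 11 at 69666936 to 69672423 (minus strand), had 18 molecules, of which cells 2, 5, 6 and 9 held 2, 6, 3 and 7.

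Eif4a2 thus supplied 86.2% (79.0 to 91.6%) of the helicase molecules over all cells, and 79.3% (66.6 to 88.8%) without cells 4, 5, 7 and 8. Divided by the length of the longest annotated transcript of each gene, the share was 80.3%. In cell 3 all 25 helicase molecules were from Eif4a2, which bounds its share at 86.3% or more, whereas in cell 9 the share was 58.8% (32.9 to 81.6%), so the intervals of these cells did not overlap. Cell 6 held 3 Eif4a1 molecules and no Eif4a2, a share of 0% (0 to 70.8%), and this interval lay below those of cells 3, 4, 5 and 8. The third paralog, Eif4a3, which is a core part of the exon junction complex rather than of eIF4F, had 8 molecules in 5 cells.

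**Figure D3:**
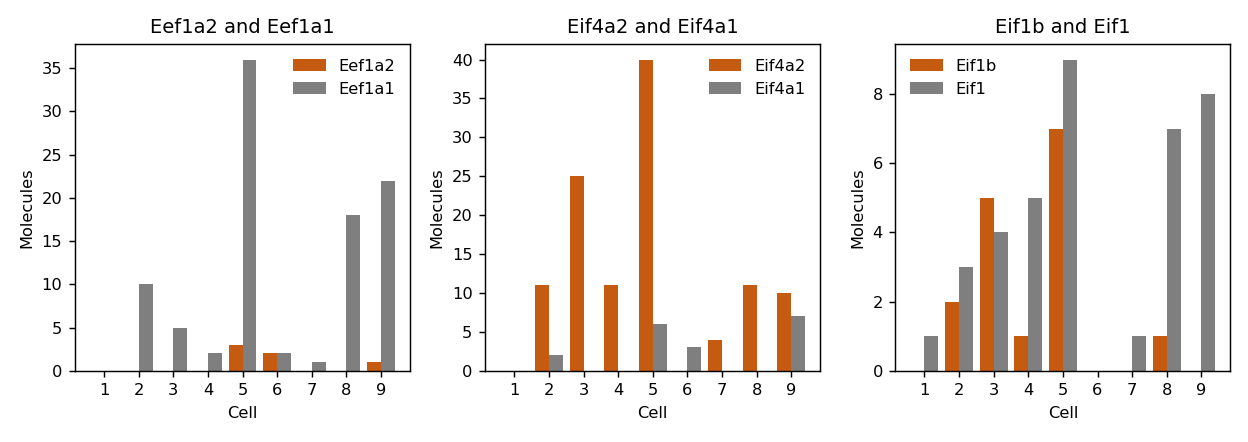
Molecules per cell of 3 paralog pairs, with Eef1a2, Eif4a2 and Eif1b in orange and Eef1a1, Eif4a1 and Eif1 in grey. Eef1a1 and Eif4a2 lead their pairs with 96 against 6 and 112 against 18 molecules in total.

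Of the eIF4G scaffolds, Eif4g2 was the most widespread by cells detected. It encodes a shortened eIF4G relative that lacks the site for the cap-binding protein and serves cap-independent initiation. Its counts in cells 1 to 9 were 1, 3, 1, 1, 7, 1, 4, 11 and 6 molecules. The canonical scaffold Eif4g1 had 11 molecules, of which cell 9 held 5 and cells 3, 4 and 5 held 2 each, and Eif4g3 had 13 in 7 cells. Eif4g2 made up 76.1% (61.2 to 87.4%) of the molecules of Eif4g2 and Eif4g1, and 63.2% (38.4 to 83.7%) without cells 4, 5, 7 and 8. Per kilobase of the longest annotated transcript, Eif4g2 had 4.38 molecules, Eif4g1 1.95 and Eif4g3 1.60, which is the same order for the first pair. Whether counts in this table grow with transcript length is not known.

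The cap-binding proteins themselves were sparse. Eif4e, the main cap-binding gene, had 8 molecules in 4 cells, 4 of them in cell 8. Eif4e3, a divergent relative, had 10, of which cells 3, 7 and 9 held 5, 4 and 1. Cells 3 and 7 held Eif4e3 at 4.66 and 5.59 per 10000, and the intervals of both lay above that of cell 5, where 26466 gene molecules included none. Eif4e2, which encodes a cap-binding repressor of translation, had 5 molecules in 4 cells, and the oocyte form Eif4e1b had none. Of the helicase cofactors, Eif4b had 14 molecules in 5 cells and Eif4h had 11, of which cells 5 and 9 held 5 each and cell 4 the last.

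The repressors that compete with eIF4G for eIF4E were nearly undetected. Eif4ebp1 and Eif4ebp2, of which Eif4ebp2 is known as the main form in the brain, had no molecule in any cell, and the count of 0 over all cells allows, at 3 molecules, a pooled level of up to 0.328 per 10000. Eif4ebp3 had 1 molecule, in cell 2. Eif4enif1, which encodes a protein that carries eIF4E into the nucleus and represses its mRNAs, had 7 molecules, of which cells 7 and 8 held 3 each and cell 3 the last.

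The factors that select the start codon were led by Eif1. Eif1, on chromosome 11 at 100319885 to 100322096 (plus strand), encodes the factor that guards the accuracy of start codon choice. Its counts were 1, 3, 4, 5, 9, 0, 1, 7 and 8 molecules in cells 1 to 9. No pair of cells had intervals for its level that did not overlap. Its paralog Eif1b had 16 molecules, or 29.6% (18.0 to 43.6%) of both, and 30.4% without cells 4, 5, 7 and 8. Per kilobase of the longest annotated transcript, Eif1b had 15.5 molecules and Eif1 28.7. Eif1b had 5 molecules in cell 3 beside 4 of Eif1, and none in cell 9 beside 8 of Eif1. These shares, 55.6% (21.2 to 86.3%) and 0% (0 to 36.9%), had overlapping intervals. Eif1a had 13 molecules in 6 cells, and its X-linked copy Eif1ax had 5. Eif1ad, a relative active in ribosome assembly, had 3.

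eIF2 carries the initiator tRNA, and its beta subunit was far more often counted than its alpha subunit. Eif2s2, the beta subunit, had 35 molecules, of which cells 2, 3, 4, 5, 8 and 9 held 3, 5, 4, 12, 4 and 7. Eif2s1, the alpha subunit on which the stress kinases act, had 11, of which the same cells held 1, 1, 2, 5, 1 and 1. Eif2s2 thus gave 76.1% (61.2 to 87.4%) of their molecules and led in all 6 cells that held either gene. Without cells 4, 5, 7 and 8 the share was 83.3% (58.6 to 96.4%). Per kilobase of the longest annotated transcript, Eif2s2 had 13.8 molecules and Eif2s1 3.23. Eif2a and Eif2d, which encode alternative carriers of initiator tRNA, had 2 and 1 molecules.

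Of the 5 subunits of eIF2B, the factor that recharges eIF2, Eif2b4 was detected in 6 cells with 11 molecules. Eif2b1, Eif2b2, Eif2b5 and Eif2b3 had 7, 7, 6 and 2 molecules in at most 4 cells each, and 6 of the 7 molecules of Eif2b1 lay in cell 5. The 4 kinases that shut down eIF2 under stress gave 7 molecules. Eif2ak4, the kinase of amino acid shortage, had 4, Eif2ak1, the kinase of haem shortage, had 3, and Eif2ak2 and Eif2ak3, the kinases of double-stranded RNA and of endoplasmic reticulum stress, had none.

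eIF3, the largest initiation factor by subunits, holds the small ribosomal subunit and the mRNA together, and its 14 listed genes gave 183 molecules. Of these genes, 6 reached at least 5 cells (Eif3c, Eif3k, Eif3a, Eif3e, Eif3m and Eif3i), 7 reached 1 to 4 cells and Eif3j1 was undetected. With cell 2, 5 or 8 left out, 3 of them reached at least 5 of the 8 others. Without cells 4, 5, 7 and 8, 4 were detected in at least 3 of 5 cells. Eif3c had the most molecules, 41 (29.4 to 55.6), and cells 1 to 9 held 0, 7, 5, 1, 12, 0, 5, 9 and 2 of them. Eif3k had 26 and Eif3a 23. The order of the leading pair turned without cells 4, 5, 7 and 8, with 17 molecules of Eif3k and 14 of Eif3c.

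The subunits of eIF3 are present once each in the complex, but their mRNA molecules were not equal. Eif3b, which together with Eif3a and Eif3c belongs to the core of the complex, had 2 molecules (0.242 to 7.22), 1 each in cells 5 and 9, and its interval lay below those of Eif3a, Eif3c and Eif3k. Per kilobase of the longest annotated transcript, Eif3k led with 28.6 molecules, ahead of Eif3c with 12.1 and Eif3h with 11.6, and Eif3a had 4.49 and Eif3b 0.679. Over all 9 cells Eif3b was the lowest of the detected subunits on both scales. This was not so without cells 4, 5, 7 and 8: Eif3d then had 0 molecules, and Eif3b, Eif3l and Eif3j2 had 1 each. Eif3h and Eif3e had 15 molecules each, and 6 of those of Eif3h lay in cell 9. Eif3m, Eif3l, Eif3i, Eif3d, Eif3f, Eif3g and Eif3j2 had 4 to 14 molecules each.

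**Figure D4:**
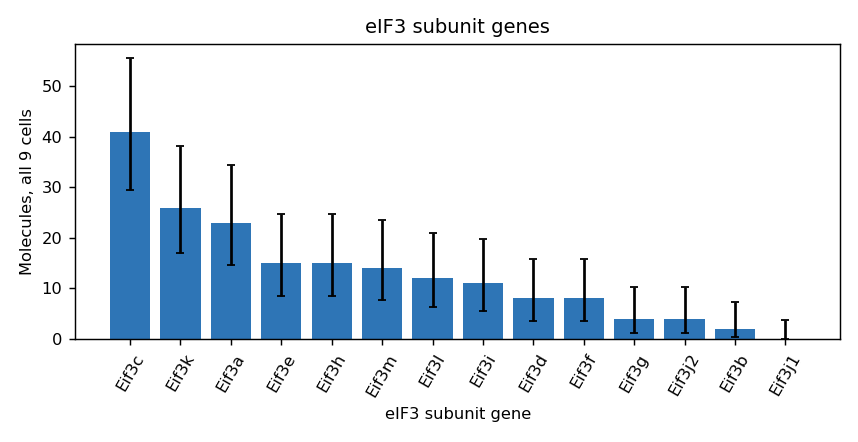
Molecules summed over the 9 cells for the 14 eIF3 subunit genes, with exact 95% Poisson intervals as bars. Eif3c is highest at 41, Eif3b has 2 and Eif3j1 has 0.

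Late initiation factors were moderately represented. Eif5, which triggers GTP hydrolysis on eIF2, had 20 molecules, which cells 1 to 9 held as 0, 3, 0, 1, 7, 1, 5, 3 and 0. It was absent from cells 3 and 9, which were deeper than cell 7, but the intervals of its level overlapped in every pair of cells. Eif5b, which joins the ribosomal subunits, had 5 molecules and Eif6, which keeps the large subunit apart, had 7, each in 4 cells. Eif5a, whose protein helps the ribosome through difficult peptide bonds and carries the modified lysine hypusine, had 10 molecules in 5 cells, and its paralog Eif5a2 had none.

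Among elongation factors the most molecules came from Eef1a1, which encodes the carrier of charged tRNA. Eef1a2 had 6 molecules over all cells, of which cells 5, 6 and 9 held 3, 2 and 1. Eef1a1, on chromosome 9 at 78478449 to 78489151 (minus strand), had 96, and cells 1 to 9 held 0, 10, 5, 2, 36, 2, 1, 18 and 22 of them. Eef1a2 thus gave 5.88% (2.19 to 12.4%) of the molecules of both paralogs, and 7.14% (1.50 to 19.5%) without cells 4, 5, 7 and 8. In cell 6 the share was 50% (6.76 to 93.2%) from 4 molecules. Per kilobase of the longest transcript the pooled share was 5.11%. The genome holds processed copies of Eef1a1 and of other abundant factors, and no source used here says how reads shared with such copies were counted.

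Eef1a1 had more pairs of cells with separate intervals than any other factor. Its level per 10000 gene molecules was highest in cell 9, at 28.1 (17.6 to 42.6), followed by cells 8, 5 and 2 at 13.7, 13.6 and 10.4. Cells 6 and 3 had 5.89 and 4.66, and the lowest levels above 0 were 1.66 (0.201 to 6.01) in cell 4 and 1.40 (0.0354 to 7.78) in cell 7. The interval of cell 9 lay above those of cells 3, 4 and 7, and the intervals of cells 5 and 8 lay above those of cells 4 and 7. In total 7 of the 36 pairs of cells had intervals that did not overlap. The total of cell 4 includes its 2376 blood marker molecules and a mitochondrial share of 22.6%. Intervals for Eef1a1 were not computed without them. The separations that involve cell 4, and the count of pairs, therefore hold for totals that include them only. Cells 4 and 7, at the low end, held the most endothelial marker molecules, 118 and 54, while cells 5 and 6 held 3 each. Cell 1, with 0 of them, had no Eef1a1 molecule at 1021 gene molecules. Cell 5 held the oligodendrocyte markers and cell 8 those of ependymal cells or tanycytes and of astrocytes. Whether the markers and the level of Eef1a1 are linked was not tested.

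Eef1a1 and Eif4a2, the most abundant factors, did not run in parallel, a contrast picked out after their values were seen. Per kilobase of the longest annotated transcript, Eef1a1 had 53.5 molecules and Eif4a2 41.4, the reverse of their order by raw count. Eef1a1 gave 68.8% (50.0 to 83.9%) of the molecules of both in cell 9 and 62.1% (42.3 to 79.3%) in cell 8, with 47.6% and 47.4% for cells 2 and 5. Cell 3 stood at 16.7% (5.64 to 34.7%) and cell 4 at 15.4% (1.92 to 45.4%). The intervals of cells 5, 8 and 9 lay above that of cell 3. Pooled, the share was 46.2%, and 45.9% without cells 4, 5, 7 and 8.

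The exchange factor eEF1B, which recharges eEF1A, was present through Eef1b2 with 28 molecules in 6 cells, Eef1g with 21 in 7 cells and Eef1d with 9 in 4 cells. Eef1e1, which encodes a protein of the tRNA synthetase complex, had 1. Eef2, the factor that moves the ribosome on by a codon, is a gene of chromosome 10, at 81176631 to 81182498 on the plus strand. Its 38 molecules fell on cells 1 to 9 as 0, 3, 4, 7, 13, 2, 2, 0 and 7. At 13176 gene molecules, the exact interval of cell 8 ends at 2.80 per 10000, below the lower bound of 3.60 in cell 9. Eef2k, the kinase that stops eEF2, had 2 molecules.

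Elongation factors gave 201 molecules and initiation factors 617. The eIF2 kinases, the eIF4E-binding proteins and eIF5A were counted in neither. Eef2k and Eef1e1 were counted with elongation, and Eif4a3, Eif1ad and the repressor gene Eif4e2 with initiation. The elongation share of both was 24.6% over all cells and 25.3% without cells 4, 5, 7 and 8. It was lowest in cell 7, at 9.76% (2.72 to 23.1%), and highest in cell 6, at 52.9% (27.8 to 77.0%). The interval of cell 6 lay above those of cells 3 and 7. The share in the other cells ran from 17.6% in cell 3 to 33.3% in cell 1.

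Tpt1 and Pabpc1, the TOP mRNAs added to the factors by name, behaved differently between cells. Tpt1 encodes the translationally controlled tumour protein. Its counts in cells 1 to 9 were 1, 3, 4, 2, 10, 1, 2, 4 and 1 molecules, and the intervals of its level overlapped in every pair of cells. Pabpc1, the cytoplasmic poly(A)-binding protein that bridges the mRNA tail to eIF4G, had 18 molecules, of which cells 4, 2, 5 and 7 held 11, 4, 2 and 1. Its level of 9.15 per 10000 (4.57 to 16.4) in cell 4 had an interval above those of cells 3, 5 and 8. Cell 4 also held the blood and endothelial markers, and their part in this level was not tested. Without cells 4, 5, 7 and 8, Pabpc1 was left with the 4 molecules of cell 2.

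The 11 TOP mRNAs gave 290 factor molecules, 32.6% of the total, and 31.9% without cells 4, 5, 7 and 8. Without Eef1a1 and Tpt1 the share was 21.7%. By cell it was highest among the deeper cells in cell 4, at 41.8% (30.8 to 53.4%), and cells 9, 5, 2 and 8 had 38.2%, 34.6%, 32.6% and 30.4%. Cell 3 had 21.6% (14.4 to 30.4%) and cell 7 had 16.7% (7.48 to 30.2%). The interval of cell 4 lay narrowly above those of cells 3 and 7. Of the 33 TOP molecules of cell 4, 11 came from Pabpc1 alone, and the share without Pabpc1 was not computed. Cells 1 and 6, with 4 and 18 factor molecules, had 50% and 44.4% with wide intervals.

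For most factors the depth did not separate any pair of cells. Of the 31 factors with at least 9 molecules, 7 had some pair of cells whose intervals did not overlap, namely Eef1a1, Eif4a2, Eif4a1, Pabpc1, Eif4e3, Eef2 and Eif3h. That is 22.6%, and 32.2% of all 2062 names with at least 9 molecules met the same rule. With 36 pairs per gene and no adjustment for their number, these counts describe the 9 cells only.

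The lists of other genes of the pathway are read beside the 7% of all names that reached at least 5 cells, and the 5.99% that reached at least 3 of 5 without cells 4, 5, 7 and 8. Without cells 4, 5, 7 and 8, 5 tRNA synthetase genes, 2 partners of the poly(A)-binding protein and 1 mitochondrial factor were detected in at least 3 of 5 cells, and 0 genes of the other lists, including the response to eIF2 phosphorylation. The list of cytosolic tRNA synthetases held 22 genes, including some for proteins of their complex that are not synthetases. Of the 22, 5 reached at least 5 cells, 16 reached 1 to 4 and 1 was undetected. Sars, the seryl-tRNA synthetase, had 50 molecules, of which 20 lay in cell 9 and 15 in cell 5. Nars had 22 and Rars 12. The list of partners of the poly(A)-binding protein held 8 genes, including some paralogs of Pabpc1 itself. Of the 8, 2 reached at least 5 cells, 5 reached 1 to 4 and 1, such a paralog, was undetected. Paip2, an inhibitor of Pabpc1, had 29 molecules in 7 cells, and Larp4, which binds the mRNA tail, had 9 in 5 cells.

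None of the 8 genes of termination and ribosome recycling reached at least 5 cells, 7 reached 1 to 4 and 1 was undetected. Etf1, the release factor, had 9 molecules, and Mcts1 and Denr, partners in recycling, had 8 and 7. Of 12 genes of mTOR and Mnk signalling, 1 reached at least 5 cells, 9 reached 1 to 4 and 2 were undetected. Rheb, the small GTPase that activates mTOR, had 19 molecules in 6 cells, and the S6 kinase genes Rps6kb1 and Rps6kb2 had 11 and 4. Of 8 genes of the response to eIF2 phosphorylation, 3 reached at least 5 cells, 3 reached 1 to 4 and 2 were undetected. Ppp1r15a, which recruits the phosphatase of eIF2, had 22 molecules, 9 of them in cell 7. Ddit3 had 12 and Asns 9. Ppp1r15a and Ddit3 were among those in at least 5 cells, and the third was the transcription factor gene Atf4 with 8 molecules, named after its values were seen.

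Of 8 genes for the modification of eIF5A to hypusine and of eEF2 to diphthamide, none reached at least 5 cells, 6 reached 1 to 4 and 2 were undetected. Dph6, Dph3 and Dph5, all of diphthamide synthesis, had 6, 5 and 4 molecules. Of 9 mitochondrial translation factors, none reached at least 5 cells, 7 reached 1 to 4 and 2 were undetected. Tufm, the mitochondrial counterpart of eEF1A, had 7 molecules, and Tsfm and Mtif2 had 5 each.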

How the data were processed

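Counts in whole numbers, named molecules by the authors, were deposited for 9 cells captured on a Fluidigm C1 chip from slices 300 µm thick, with spike-ins at lysis and 21 PCR cycles, per the labels' protocols. The submitters' processing notes name mm10 and Bowtie. Read collapsing, strand setting and the choice of cells are not given in the sources used here; reads of a gene and of one antisense to it can therefore not be told apart. Columns were assigned by the cell number in their names, 0 were left over, and no well name was shared.

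Symbols with numbered loci were reduced to the largest row per cell; 0 of the 63 genes had such rows. Levels are molecules per 10000 gene molecules without spike-ins. Intervals are exact Poisson or Clopper-Pearson at 95%. Detection limits for a count of 0 are set at 3 molecules; intervals compared between cells use the exact Poisson bound, which is higher. Thinned counts of factors are exact expectations; 1 seeded draw gave the thinned alternative. Interval separation was also run on simulated Poisson counts in which some genes were raised in 1 cell. Such counts hold no further spread between cells, so that run does not show how the rule behaves in these data. With 1 sample, no test was made. The members and lists were chosen with earlier results of these data known. Named were the elongation, eIF5A, eIF1, eIF4A, eIF4G and eIF4E paralogs, Tpt1, Pabpc1, up to 5 factors per complex by mean level, factors in all 9 cells, and up to 3 genes per other list; Atf4, Eif4b, Eif4h and the eIF3 subunits other than Eif3a, Eif3c, Eif3e, Eif3h and Eif3k were named after their values were seen. The work used Python 3.11.15 with scipy 1.17.1, pandas 2.3.3, numpy 2.4.6 and, for plots, matplotlib 3.10.9.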

Additional observations from a re-analysis of the deposited data

Results flagged for a closer look

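Of 38 measures looked at in the 9 cells, 10 had 1 cell whose gap to the nearest other cell over the whole range exceeded Dixon's 95% critical value. Chance flags about 1 in 20 groups of normal values with equal spread, which sparse counts at unequal depths are not. That rate is therefore no yardstick here. In these data 31.7% of all names with at least 9 molecules met the criterion. Of the 31 translation factors with as many molecules, 8 did (25.8%). In cell 9 these were Eef1a1 at 28.1, Eif3h at 7.67, Eif4g1 at 6.39 and Eif4h at 6.39 molecules per 10000. Cell 9 also had the lowest spike-in count, 614, and was alone on its lane, so cell and lane cannot be told apart. Pabpc1 stood at 9.15 per 10000 in cell 4, the cell with the blood markers, and Eif5 at 6.98 in cell 7. Eef1d at 8.84 per 10000 in cell 6 rests on 3 molecules and Tpt1 at 9.79 in cell 1 on 1 molecule. The factors' share of factor and ribosomal protein molecules stood apart in cell 6, at 56.3%.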

How the results depend on the processing

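Under the alternatives run for them, the 5 shares each moved by less than 1 SD between cells, with 1 exception. The TOP share of 32.6% was 21.7% without Eef1a1 and Tpt1. Cell 6 widens the SD between cells for Eef1a2, with a share of 50% from 4 molecules, and for Eif4a2, with 0% from 3. It also widens the SD of the elongation share, at 52.9%. The counts of genes detected in most cells depended on the detection limit. The 24 factors in at least 5 cells were 11 at 2 molecules, 8 at 3 molecules and 10 when 7 of 9 cells were required, and the 6 eIF3 subunits were 3, 1 and 2. Leaving out each cell in turn gave 17 to 24 factors and 3 to 6 eIF3 subunits, with 3 left without cell 2, 5 or 8. It also gave a median factor share of 0.810 to 0.971%, an Eef1a2 share of 4.08 to 7.14%, an Eif4a2 share of 82.9 to 90.3%, a TOP share of 31.7 to 34.2% and an elongation share of 23.2 to 25.6%. At least 5 of the 8 cells left were required in those counts. Without cells 1 and 6, chosen after seeing the data, 33 factors and 9 eIF3 subunits were in at least 4 of 7 cells. Thinning the 7 deeper cells gave 21 and 6. The median over cells of the Eef1a2 share was 0% and that of the Eif4a2 share 93.5%. Scaling by spike-ins gave a median factor share of 0.953%. Mean levels per 10000 became 16.9 for Eef1a1 and 15.4 for Eif4a2, where scaling by gene molecules gave 8.83 and 9.53, so their order turned. Cell 9, which held 22 molecules of Eef1a1 and 10 of Eif4a2, had 614 spike-in molecules against a median of 2074. The spike-in means were not computed without cell 9. Factor molecules per 1000 spike-ins ran from 1.97 in cell 1 to 200.3 in cell 9. No paired analysis was possible because all 9 cells belong to 1 group. Depth limits absence: 3 molecules are 29.4 per 10000 in cell 1 and 8.84 in cell 6, against 1.13 in cell 5.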
